A study of Bos taurus with 6 samples.

Results

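The miRNAs described here are the stromal families miR-199, miR-214, miR-143 and miR-145 in cultured bovine granulosa cells. They were chosen by name, as 7 of the 1028 bovine miRNAs listed in each library (bta-miR-199a-3p, bta-miR-199a-5p, bta-miR-199b, bta-miR-199c, bta-miR-214, bta-miR-143 and bta-miR-145). Granulosa cells, a cell type of the follicle, came from slaughterhouse ovaries, out of follicles of 3 to 6 mm in diameter. Oocytes with their cumulus cells were left to settle, and the floating granulosa cells were kept. They were grown for 24 h in medium with 10% serum depleted of exosomes, and then held for another 24 h at 37 °C (control, 3 libraries) or at 42 °C (heat stress, HS, 3 libraries). No strain, animal age or number of pooled animals is given in the sources used here, and the culture on plastic without an oocyte or theca layer limits it as a model of the follicle. The question put to the comparison was whether HS changed the cellular miRNAs.

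The miR-199 and miR-214 hairpins are best known from connective tissue, where part of them are cut from a single long transcript that runs opposite to the DNM3 gene. miR-214 and miR-199 act on matrix production and growth signalling, and miR-199a-5p and miR-199a-3p are the opposite arms of the same hairpin. miR-143 and miR-145 are made from a shared primary transcript, are abundant in smooth muscle and fibroblasts, and act on the contractile state and on the cytoskeleton. In the ovary, miR-143, miR-145 and miR-214 have been studied in granulosa cells as well, so these miRNAs are not markers of a single cell type.

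RefSeq places the hairpins as follows on assembly ARS-UCD2.0. MIR199A-1 and MIR214 are neighbours that lie within DNM3 and within an uncharacterised long noncoding RNA. MIR199A-2 lies within DNM2, and MIR199B lies within DNM1, so 3 dynamin genes hold these hairpins. MIR199C stands apart from that arrangement and lies within NUP88, a nucleoporin gene. MIR143 and MIR145 are neighbours within another long noncoding RNA, between IL17B and CSNK1A1. MIR214 overlaps MIR3120, whose product bta-miR-3120 had 1 to 14 reads per library, and MIR199A-2 and MIR199B overlap copies of MIR3604, whose product bta-miR-3604 was listed at 0 in every library. This assembly is not the one the reads were mapped to (UMD3.1), so no positions are given. A mature miR-199 sequence can come from more than 1 of these hairpins, and the hairpin of origin was not tested.

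Levels are given as normalised CPM, read counts scaled to a common effective library size. The libraries held 2076239 to 4590971 reads, and control replicate 1 was the shallowest. By the study's mapping summary it also had the smallest share of reads mapped to annotated miRNAs and the largest share mapped to the genome. HS replicate 1 had the smallest miRNA share among the HS libraries. Whether this bears on the levels given here was not tested. Control replicate 1 also stood apart for these miRNAs, as it had the lowest value of the 6 libraries for 4 of the 4 miR-199 names and the highest for bta-miR-145. No defining messenger RNA of stroma or theca was measured, so the stromal label could be set only against other miRNAs, which are given below.

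By name, most miR-199 reads were assigned to the arms of miR-199a. bta-miR-199a-3p had 934, 1627 and 1395 normalised CPM at 37 °C (replicates 1, 2 and 3) and 1544, 1643 and 1680 at 42 °C. Control replicate 1 was low and the other 5 libraries lay between 1395 and 1680, so the groups overlapped. It ranked 67th of the 755 miRNAs with a read in any library.

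The opposite arm, bta-miR-199a-5p, had 250, 324 and 308 at 37 °C and 327, 371 and 373 at 42 °C. Every HS library was above every control library, but HS replicate 1 and control replicate 2 differed by less than their counting error (95% Poisson intervals of 306.7 to 347.9 and 308.1 to 341.2). Scaled by library totals alone, these libraries changed places.

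bta-miR-199b and bta-miR-199c were scarce. bta-miR-199b had 3.42, 6.30 and 11.7 normalised CPM at 37 °C and 4.31, 8.97 and 10.2 at 42 °C, on 7 to 48 reads per library. Replicate 1 was the lowest of its group at both temperatures, and the groups overlapped. bta-miR-199c had 5.37, 7.39 and 9.47 at 37 °C and 8.96, 5.71 and 6.39 at 42 °C, on 11 to 34 reads, with overlapping groups. How reads that match more than 1 miR-199 name were shared is not given in the sources used here, so the split among the names is uncertain.

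bta-miR-214, cut from the same transcript as a miR-199a hairpin, had 63.0, 43.0 and 59.6 normalised CPM at 37 °C and 60.7, 108.5 and 65.8 at 42 °C. HS replicate 2 was the only library above 100, control replicate 2 was the lowest, and the other 4 libraries lay between 59.6 and 65.8.

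bta-miR-143 was the steadiest of the scarcer miRNAs, with 58.1, 79.5 and 64.6 at 37 °C and 64.4, 61.2 and 59.4 at 42 °C. The 3 HS libraries differed by less than counting error (chi-square of 0.373 per degree of freedom). The control libraries differed by more than counting error (5.78), and control replicate 2 was the highest. It ranked 187th of 755, next to bta-miR-214 at 184th.

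bta-miR-145, its partner on the shared transcript, had 18.1, 8.91 and 4.74 at 37 °C and 11.9, 8.16 and 5.11 at 42 °C, on 17 to 41 reads. Replicate 1 was the highest and replicate 3 the lowest in each group, and the groups overlapped. In control cells the 95% Poisson interval of replicate 1 (12.7 to 24.9) did not meet that of replicate 3 (2.76 to 7.58).

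**Figure D1:**
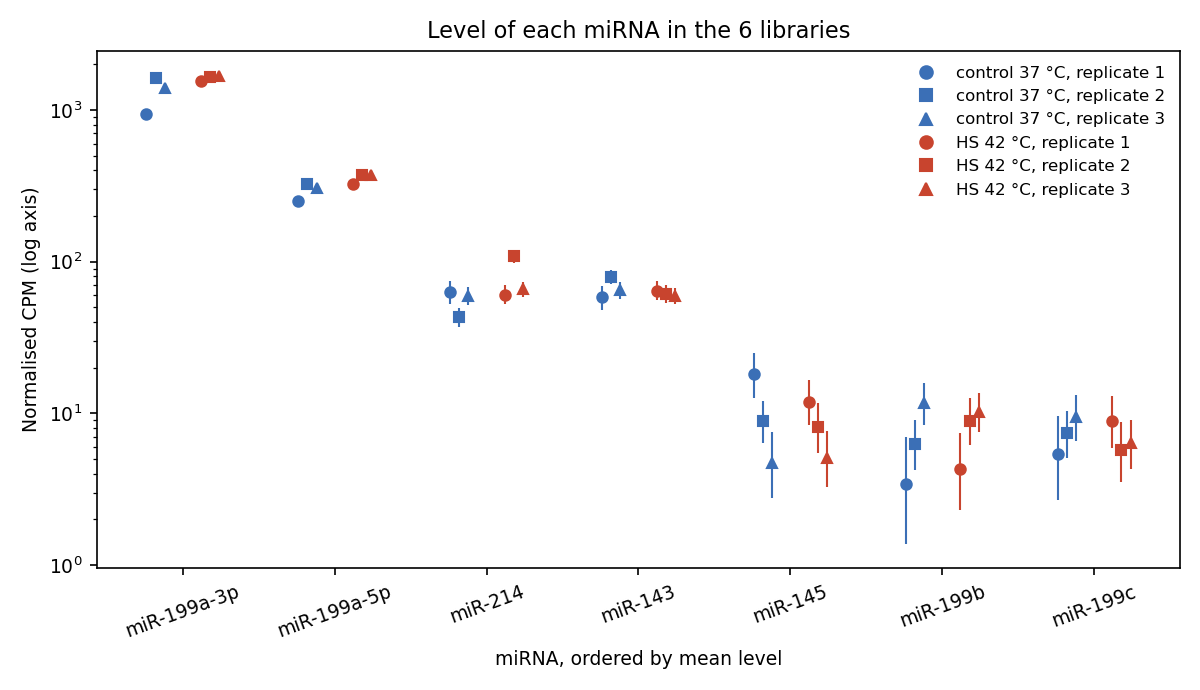
Level of the 7 miRNAs in each of the 6 libraries, in normalised CPM on a log axis, ordered by mean level. Points are libraries (blue control, red HS; circle, square and triangle for replicates 1, 2 and 3) and bars are 95% Poisson intervals of the reads. bta-miR-199a-3p stands highest, at 934 to 1680, and bta-miR-145, bta-miR-199b and bta-miR-199c lie lowest, with ranges that overlap each other.

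By mean level over the 6 libraries the order was bta-miR-199a-3p (1471 ± 282 normalised CPM, SD), bta-miR-199a-5p (325.5 ± 45.5), bta-miR-214 (66.8 ± 21.9), bta-miR-143 (64.5 ± 7.79), bta-miR-145 (9.49 ± 4.97), bta-miR-199b (7.49 ± 3.33) and bta-miR-199c (7.21 ± 1.70). Each of the first steps, from bta-miR-199a-3p to bta-miR-199a-5p and on to bta-miR-214, was present in 6 of 6 libraries, at 4.52 and 4.87 times. bta-miR-143 was 6.80 times bta-miR-145, also in 6 of 6. bta-miR-214 and bta-miR-143 did not differ beyond their spread, and each was the higher in 3 libraries. The same held for bta-miR-145 against bta-miR-199b and for bta-miR-199b against bta-miR-199c. Adapters join some miRNAs more readily than others, so steps between different miRNAs in read counts are not exact steps in molecules.

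Together the 4 miR-199 names and bta-miR-214 held 0.124% to 0.219% of the reads, of which bta-miR-199a-3p made up 74.4% to 81.0%. bta-miR-143 and bta-miR-145 together held 0.0066% to 0.00895%. The summed level of miR-199 and miR-214 was 1683 ± 386 normalised CPM at 37 °C and 2072 ± 111 at 42 °C, and that of miR-143 and miR-145 was 78.0 ± 9.65 and 70.1 ± 5.94 (SD, n = 3 each). By library the miR-199 and miR-214 sum was 1256, 2008 and 1783 at 37 °C and 1945, 2137 and 2135 at 42 °C. The groups overlapped for both sums, and control replicate 1 was the lowest for miR-199 and miR-214. In this bulk RNA, fewer cells of a type and less RNA per cell cannot be told apart.

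The miRNAs differed in how far libraries of the same group scattered. The pooled within-group SD on the log2 scale was 0.72 for bta-miR-145 and 0.68 for bta-miR-199b, and 7.12% and 10.1% of the tested miRNAs scattered more. It was 0.17 for bta-miR-143 and 0.16 for bta-miR-199a-5p, with 77.3% and 78.9% of tested miRNAs scattering more. Over the 7 the median was 0.33, against 0.27 over the 365 miRNAs tested. In bta-miR-199c the scatter was near that of counting alone (chi-square per degree of freedom 1.48 at 37 °C and 1.40 at 42 °C), whereas in bta-miR-145 it was 12.5 and 5.45.

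**Figure D2:**
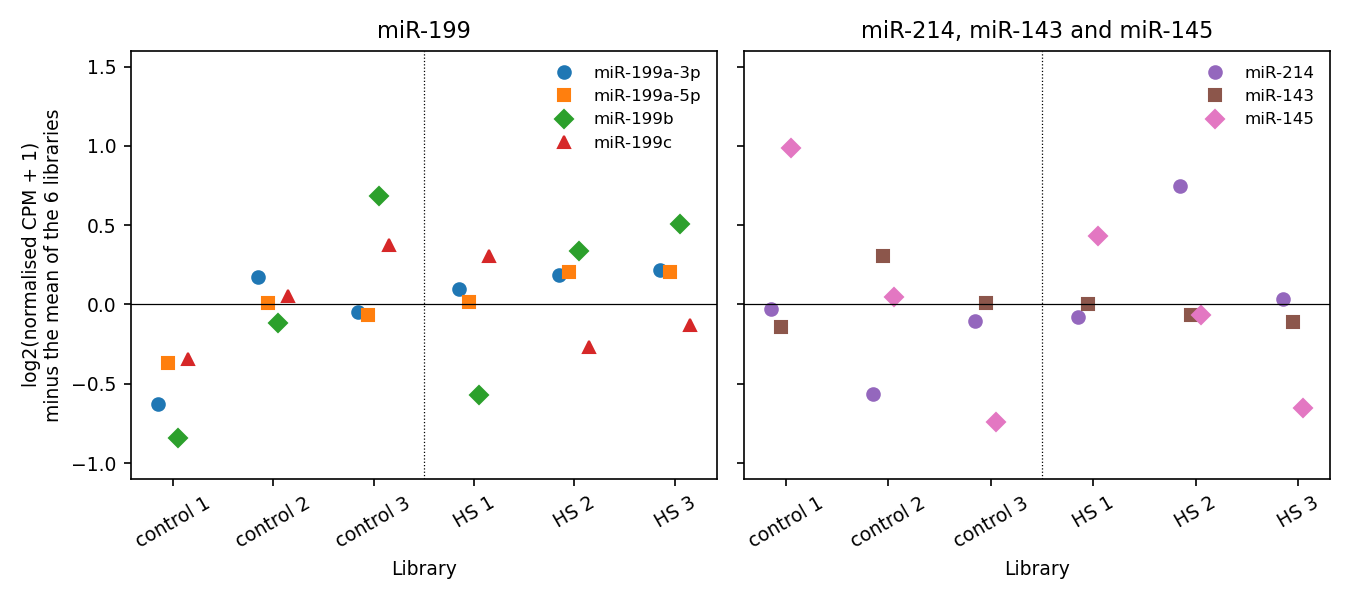
Departure of each miRNA from its own mean over the 6 libraries, on log2(normalised CPM + 1), by library, with miR-199 on the left and miR-214, miR-143 and miR-145 on the right. The 4 miR-199 names are below 0 in control replicate 1, bta-miR-145 is above 0 in replicate 1 of both groups, and bta-miR-214 is highest in HS replicate 2.

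HS left none of these miRNAs past the study's threshold, which asks for an adjusted p no higher than 0.2 and a change of 1 or more log2 units. limma called 11 of the 365 miRNAs tested (3.01%) by that rule, and 0 of the 7 were among them. All 7 had passed the filter on low reads. At an unadjusted p under 0.05 limma also gave 0 of 7, where 14.5% of all tested miRNAs fell. On the recovered reads, edgeR (quasi-likelihood) and DESeq2 (Wald) called 0 of 7 as well, with 0 of 7 at an unadjusted p under 0.05 in each. With no minimum on the change, 7.12% of tested miRNAs reached an adjusted p of 0.2 and 2.19% one under 0.05, against 0 of 7 in each case. Groups did not overlap for 1 of the 7, bta-miR-199a-5p with HS higher, and for 0 of the 7 with HS lower. Over all tested miRNAs these shares were 9.59% and 10.4%, or 20% in either direction.

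The estimates were small, and their intervals show what they leave possible. bta-miR-199a-3p averaged 1319 ± 353 normalised CPM at 37 °C and 1622 ± 70.4 at 42 °C (SD, n = 3 each), a difference of 0.34 ± 0.21 log2 units (SE, adjusted p = 0.541 by limma). Its 95% interval ran from 0.894 to 1.78 times the control level. Without control replicate 1 the log2 fold change was 0.11. bta-miR-199a-5p averaged 294 ± 39.0 and 357 ± 26.1 (log2 fold change 0.29 ± 0.16, adjusted p = 0.463 by limma, interval 0.943 to 1.58 times). Without control replicate 1 it was 0.17. bta-miR-214 had the largest estimate of the 7, 0.47 ± 0.28, with means of 55.2 ± 10.7 and 78.3 ± 26.3 (adjusted p = 0.519 by limma, interval 0.88 to 2.17 times). It rested largely on HS replicate 2, without which it was 0.21, and without control replicate 2 it was 0.30.

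For the other 4 miRNAs the sign of the estimate turned when a single library was left out, so no direction is given for them. bta-miR-143 had 67.4 ± 11.0 at 37 °C and 61.6 ± 2.53 at 42 °C (log2 fold change -0.12 ± 0.18, adjusted p = 0.853 by limma, interval 0.69 to 1.23 times). It was 0.0077 without control replicate 2. bta-miR-145 had 10.6 ± 6.82 and 8.40 ± 3.43 (log2 fold change -0.19, adjusted p = 0.954 by limma), with an interval from 0.397 to 1.93 times, and was 0.25 without control replicate 1 and 0.084 without HS replicate 3. bta-miR-199b had 7.14 ± 4.21 and 7.83 ± 3.11 (log2 fold change 0.18, adjusted p = 0.954 by limma), with an interval from 0.536 to 2.39 times, and was -0.20 without control replicate 1 and -0.029 without HS replicate 3. bta-miR-199c had 7.41 ± 2.05 and 7.02 ± 1.71 (log2 fold change -0.060, adjusted p = 0.959 by limma), with an interval from 0.616 to 1.49 times, and was 0.11 without control replicate 3 and 0.058 without HS replicate 2. A rise of 1 log2 unit lay inside the interval for bta-miR-214 and bta-miR-199b, a fall of that size lay inside it for bta-miR-145, and neither lay inside it for the other 4.

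Over the 7 miRNAs the median log2 fold change was 0.18, with 4 above 0 and 3 below, and over all 365 it was -0.0015 with 181 (49.6%) above 0. The median size was 0.19 for the 7 and 0.20 for all tested miRNAs. Of all tested miRNAs, 20.8% had a larger change in size than bta-miR-214.

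**Figure D3:**
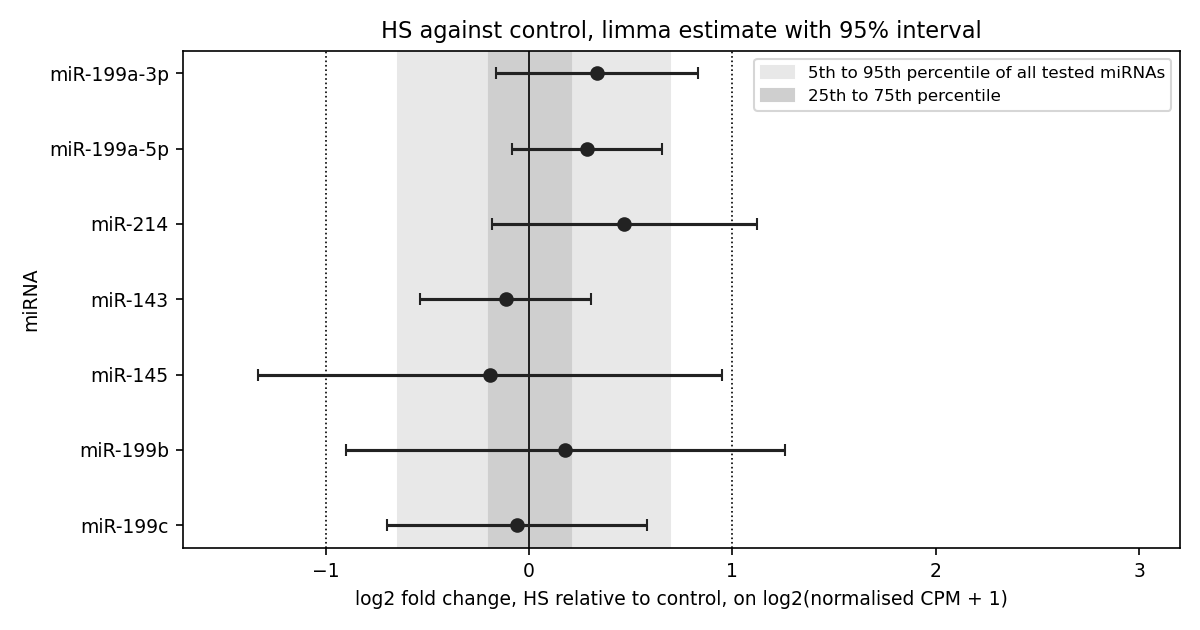
HS relative to control for the 7 miRNAs on the log2(normalised CPM + 1) scale, as limma estimates with 95% intervals. Grey bands hold the middle of the 365 tested miRNAs (5th to 95th percentile from -0.65 to 0.69, and 25th to 75th percentile), and dotted lines mark a log2 fold change of 1 in size. All 7 estimates lie inside the wider band and all 7 intervals include 0.

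Ratios between a pair of these miRNAs within a library depend little on the scaling between libraries. On the log2(normalised CPM + 1) scale, 6 of them were compared by exact two-sided permutation tests, with 0.1 as the smallest p that 3 against 3 can give. The 3p arm of miR-199a outnumbered the 5p arm by 3.74 to 5.02 times, and the log2 ratio was 2.13 ± 0.22 at 37 °C and 2.18 ± 0.049 at 42 °C (SD, n = 3 each, exact permutation p = 0.9, adjusted over the 6 ratios 1). The difference of 0.050 between the groups was smaller than the spread of the control libraries, whose replicate 1 had the lowest and replicate 2 the highest ratio of all.

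bta-miR-214 stood at 0.133 to 0.292 of bta-miR-199a-5p. The log2 ratio was -2.40 ± 0.46 at 37 °C and -2.22 ± 0.39 at 42 °C (exact permutation p = 0.7, adjusted 1). The lowest ratio was in control replicate 2 and the highest in HS replicate 2, so its spread within each group was larger than the difference between the groups.

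bta-miR-143 exceeded bta-miR-145 by 3.22, 8.93 and 13.6 times at 37 °C and by 5.39, 7.50 and 11.6 times at 42 °C. Replicate 1 had the lowest and replicate 3 the highest ratio in each group, and the groups overlapped (log2 ratio 2.72 ± 0.98 and 2.80 ± 0.49, exact permutation p = 1, adjusted 1). The proportion of these products of a shared transcript varied by more among libraries of the same temperature than between temperatures.

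bta-miR-143 relative to bta-miR-199a-3p was the only ratio of the 6 whose groups did not overlap. It was 0.0622, 0.0489 and 0.0463 at 37 °C and 0.0417, 0.0373 and 0.0353 at 42 °C. The log2 ratio was -4.24 ± 0.23 at 37 °C and -4.70 ± 0.12 at 42 °C, a difference of -0.45 (exact permutation p = 0.1, adjusted 0.6). The same lack of overlap, with HS lower, was present for 26.1% of 364 tested miRNAs set against bta-miR-199a-3p, so nothing particular to bta-miR-143 is read from it. bta-miR-199b relative to bta-miR-199a-5p and bta-miR-199c relative to bta-miR-199a-3p had differences of -0.11 and -0.40 (exact permutation p = 0.9 and 0.2, adjusted 1 and 0.6), with overlapping groups.

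**Figure D4:**
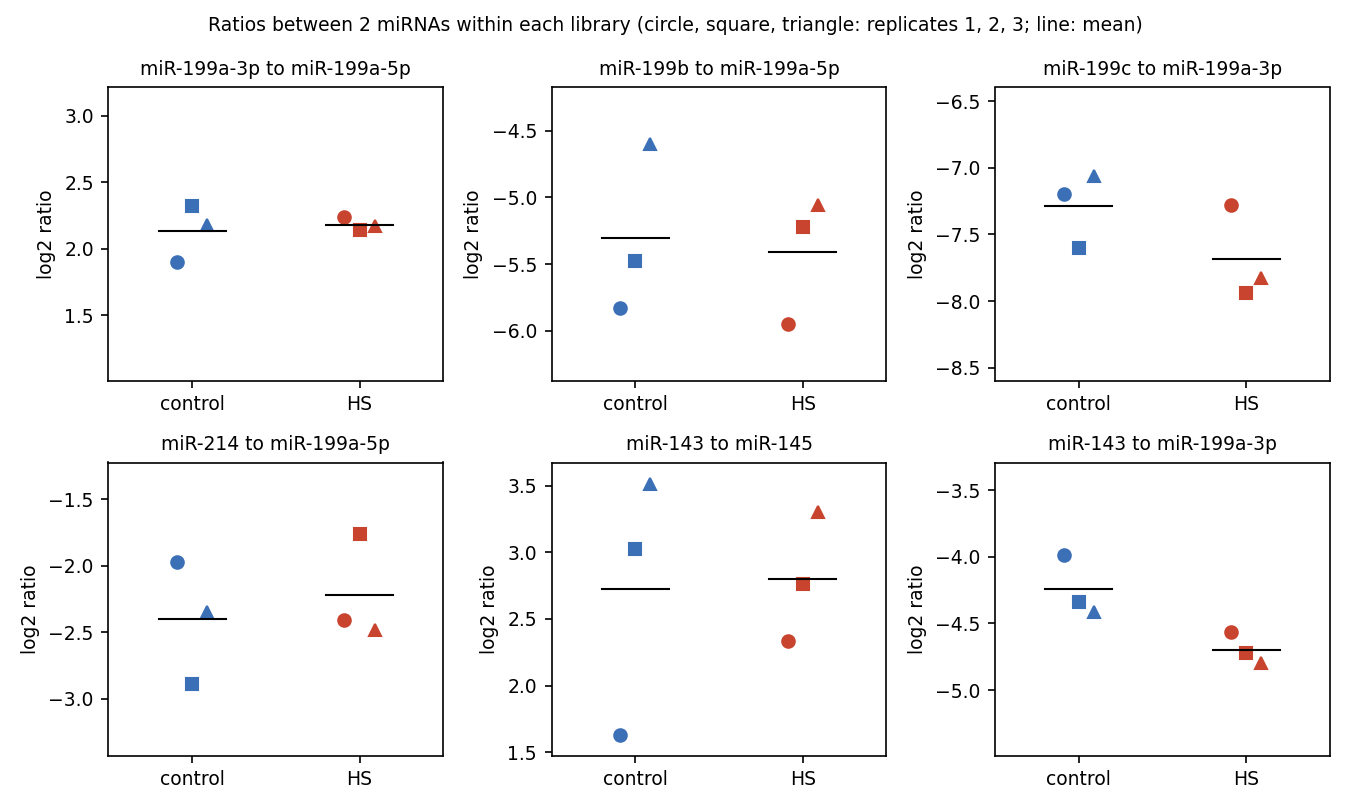
Log2 ratios between 2 miRNAs within each library for the 6 pairs compared, control in blue and HS in red, with circle, square and triangle for replicates 1, 2 and 3 and a line at each group mean. Every panel spans the same number of log2 units. Only bta-miR-143 to bta-miR-199a-3p has groups that do not overlap (-4.41 to -3.98 at 37 °C and -4.80 to -4.56 at 42 °C).

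Other miRNAs tied to fibroblasts, matrix and transforming growth factor beta signalling were taken from a list of 27, of which 21 were tested. None of the 21 was called at the study's threshold, 10 estimates were above 0 and 11 below, and the median log2 fold change was -0.00026. One of them, bta-miR-708, had an adjusted p of at most 0.2, where 7.12% of all tested miRNAs did. It had 3293, 3402 and 3114 normalised CPM at 37 °C and 2502, 2542 and 2375 at 42 °C, a log2 fold change of -0.40 (adjusted p = 0.118, limma). Its HS libraries all lay below its control libraries, as for 10.4% of all tested miRNAs. Over the list, groups did not overlap for 3 of 21, against 20% overall. The 6 listed names that did not pass the filter (bta-miR-127, bta-miR-379, bta-miR-382, bta-miR-411a, bta-miR-493 and bta-miR-495, products of an imprinted cluster) had 0 to 18 reads per library. The summed level of the list ran from 273365 to 330579 at 37 °C and from 294649 to 324501 at 42 °C, and most of it was bta-miR-21-5p at 144234 to 203788.

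Markers of other cell types that an aspirate could hold were also read. The muscle miRNAs bta-miR-1 and bta-miR-133a had 30.5 to 115 and 22.4 to 126 normalised CPM, and the 8 names of the muscle list summed to 67.3 to 253 at 37 °C and 68.0 to 209 at 42 °C. bta-miR-208a and bta-miR-490 of that list were at 0 in every library. The endothelial bta-miR-126-3p ran from 117 to 310, and its list of 2 summed to 228 to 352 at 37 °C and 131 to 265 at 42 °C. Both endothelial miRNAs, the opposite arms of the same hairpin, had estimates below 0, -0.57 and -0.66, with overlapping groups. Neither passed the threshold (adjusted p = 0.418 and 0.481 by limma).

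Of the blood-cell list of 7, the red cell bta-miR-451 had 0.557 to 2.65 normalised CPM, on 2 to 8 reads per library. bta-miR-486, also abundant in red cells, had 12.0 to 60.1 normalised CPM, on 43 to 181 reads. The leukocyte bta-miR-142-3p and the myeloid bta-miR-223 had 7.81 to 24.1 and 196 to 311 normalised CPM. The opposite arm bta-miR-142-5p, on the same list, had 248 to 429. The list summed to 730 to 895 at 37 °C and 677 to 800 at 42 °C. The epithelial list of 6 summed to 62.0 to 96.9 and 51.9 to 88.9, with bta-miR-200b at 23.8 to 45.2 and bta-miR-200c at 1.95 to 7.34. Of the granulosa and follicle list of 8, the gonadal bta-miR-202 ran from 1309 to 2749 and bta-miR-383 from 5.53 to 11.1, and the list summed to 5501 to 6674 and 5471 to 6333. No miRNA of the muscle, endothelial, blood, epithelial or follicle lists had an adjusted p of at most 0.2 in limma without a replicate block. In these lists 4, 2, 5, 4 and 8 names were tested, and 7.12% of all tested miRNAs reached it. Estimates above 0 numbered 0, 0, 2, 2 and 6 in the same order, against 49.6% of all tested miRNAs. The range of bta-miR-199a-3p overlapped that of bta-miR-202, and the range of bta-miR-143 lay within that of bta-miR-1. The part of these cell types in the stromal miRNA levels was not tested.

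The tested miRNAs whose pattern over the 6 libraries lay nearest to a member were found from log2 values minus their own mean, by the root mean square difference over the 6 libraries. For bta-miR-199a-3p the nearest of 364 were bta-miR-2284y (0.069 log2 units), its own opposite arm bta-miR-199a-5p (0.13) and bta-miR-2285aj-5p (0.13), against a median of 0.39 over all. All 3 were lowest in control replicate 1, as bta-miR-199a-3p was, which largely follows from how they were picked. bta-miR-214 from the shared transcript came 227th (0.46). In likeness to bta-miR-214, bta-miR-199a-3p was 163rd and bta-miR-199a-5p was 61st (0.36).

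For bta-miR-214 the nearest were bta-miR-330 (0.18), bta-miR-6517 (0.19) and bta-miR-2397-5p (0.21), against a median of 0.48, and all 3 were highest in HS replicate 2, with bta-miR-6517 at 85.9 there and at 38.2 to 70.5 elsewhere. For bta-miR-143 they were bta-miR-507-3p (0.034), bta-miR-2284x (0.065) and bta-let-7f (0.065), against a median of 0.31, and all 3 were highest in control replicate 2, as bta-miR-143 was. For bta-miR-145 they were bta-miR-3533 (0.26), bta-miR-2404 (0.30) and bta-miR-11975 (0.30), against a median of 0.67, and each was highest in control replicate 1. bta-miR-143 was 154th in likeness to bta-miR-145 (0.63), and bta-miR-145 was 315th in likeness to bta-miR-143. The nearest miRNAs were picked on these same values, so sharing a highest library with the member largely follows from that choice. Small distances are easier to reach for miRNAs that vary little, such as bta-miR-143, and the 6 libraries share depth and handling with every miRNA compared.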

How the data were processed

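Small RNA was sequenced from 3 control and 3 HS libraries, made from 100 ng of RNA with unique molecular identifiers and 16 PCR cycles. The authors trimmed adapters and identifiers with Cutadapt 1.11, collapsed reads by identifier, mapped them with Bowtie2 2.2.2 to the UMD3.1 genome and to miRBase, and normalised with TMM (trimmed mean of M-values) factors in edgeR. The deposited signal is TMM-normalised CPM. Every value was a whole multiple of a single step per library (tolerance 0.01 of a read, 100% of values), which gave back the reads. In these, 3 reads correspond to 0.639 to 1.46 normalised CPM, and intervals cover counting error only.

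limma 3.58.1 (trend, R 4.3.3) tested log2(value + 1) after the filterByExpr filter of edgeR 4.0.16, with Benjamini-Hochberg adjustment over all 365 miRNAs tested. This scale understates changes of scarce miRNAs. Alternatives used other scalings, filters, pseudocounts, tests (edgeR, DESeq2 1.42.0), a replicate block, and each library left out in turn. Permutation tests used Python 3.11.15. Named miRNAs were the 7 members, the markers that define each list, list members with an adjusted p of at most 0.2 and the 3 nearest patterns. bta-miR-3120 and bta-miR-3604 were added for their overlapping genes, and the imprinted-cluster miRNAs, bta-miR-21-5p, bta-miR-126-5p, bta-miR-142-5p, bta-miR-486, bta-miR-208a and bta-miR-490 after their values were seen. The members and lists were chosen with earlier results of these data known. The study describes biological triplicates, but whether these came from separate animals or cultures is not given in the sources used here, so p-values measure only the spread between these libraries.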

Additional observations from a re-analysis of the deposited data

How the results depend on the processing

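None of the 7 miRNAs passed the study's threshold under 12 alternatives that kept all libraries or in 6 fits that each left out 1 library. Their lowest adjusted p was 0.205, for bta-miR-199a-5p with upper quartile factors, where 2 of the 7 had an unadjusted p under 0.05, as 1 of the 7 (bta-miR-199a-3p) had without control replicate 2. That scaling moved the median log2 fold change of all tested miRNAs to 0.18. Under it bta-miR-143 was at 0.075 and bta-miR-199c at 0.11, of turned sign but still below that median. Over all miRNAs it gave 16 calls at the study's threshold, 10 of them higher in HS cells, against 11 and 4. Run on recovered reads, edgeR's quasi-likelihood test made 10 calls, 0 of them among the 7. Without control replicate 1 there were 16, 9 of them higher. An adjusted p under 0.05 was reached by 8 miRNAs, by 5 with upper quartile factors and by 20 with DESeq2, and the cause was not tested.

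With each library left out in turn the calls ran from 8 to 16 and those at 0.05 from 2 to 12. The log2 fold changes ran from 0.11 to 0.51 for bta-miR-199a-3p, 0.17 to 0.36 for bta-miR-199a-5p, 0.21 to 0.62 for bta-miR-214, -0.20 to 0.57 for bta-miR-199b, -0.25 to 0.11 for bta-miR-199c, -0.22 to 0.0077 for bta-miR-143 and -0.61 to 0.25 for bta-miR-145. The differences in log2 ratio ran from -0.068 to 0.14 for bta-miR-199a-3p to bta-miR-199a-5p, -0.37 to 0.24 for bta-miR-199b to bta-miR-199a-5p, -0.060 to 0.40 for bta-miR-214 to bta-miR-199a-5p and -0.47 to 0.47 for bta-miR-143 to bta-miR-145. They ran from -0.53 to -0.32 for bta-miR-143 to bta-miR-199a-3p and from -0.60 to -0.27 for bta-miR-199c to bta-miR-199a-3p, without a change of sign in either.

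Same-numbered libraries deviated together for replicates 1 and 3 but not 2 (correlations across miRNAs of 0.421, 0.616 and -0.117), and 4 of 6 libraries matched their own number best, so the numbers were not taken as pairs. With the replicate block limma gave 10 calls and 6 at 0.05, edgeR with the block gave 12 and 6, and 0 of the 7 were called in each. Of the listed markers, bta-miR-126-3p reached an adjusted p of 0.17 with the block, with the same log2 fold change of -0.57. The summing of near-identical miR-199 sequences was not run, because no sequence table was used here. With the minimum of 10 normalised CPM, bta-miR-145, bta-miR-199b and bta-miR-199c were left out.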
